A study of Bos taurus with 6 samples.

Results

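The genes described here encode the proteasome, its activators and its assembly factors, and were taken as every gene of the table whose symbol begins with PSMA, PSMB, PSMC, PSMD, PSME, PSMF or PSMG. This rule found 47 of 17663 genes. Of these, 46 are proteasome genes and 1, PSMC3IP, a recombination factor named for its binding to PSMC3, shares only the prefix. PSMB11, the beta subunit of the thymus form, had at most 1 count in any library and did not pass the filter on low counts, which left 46 genes with a test. PSMA8 and PSMD10 were not analysed here.

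The proteasome degrades proteins that carry ubiquitin chains. Its core particle is a barrel of stacked rings, with alpha subunits as the gates at both ends and beta subunits, some of them proteolytic, in the middle. The regulatory particle caps the barrel, where a ring of ATPases unfolds the substrate and a lid removes its ubiquitin. In cells exposed to interferon, the proteolytic subunits PSMB5, PSMB6 and PSMB7 are replaced by PSMB8, PSMB9 and PSMB10, which gives the immunoproteasome. Fibroblasts use the constitutive form as their main one, and the transcripts of its subunits are usually made in step.

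RNA was measured in bovine fetal fibroblasts (bEFs), primary cultures from fetuses at 50 to 60 days of pregnancy that had been stripped of head, limbs, organs and bones. FT cells came from 3 fetuses with the exogenous fat-1 gene, whose product turns n-6 into n-3 fatty acids, and the 3 fetuses behind the WT cells were wild-type Luxi cattle. The breed of the FT fetuses, their derivation and the promoter of the transgene are not given in the sources used here, so that genotype cannot be told apart from breed or origin. Each fetus gave 1 poly(A) library, with total counts of 63366834, 48167642 and 54204446 in FT_1 to FT_3 and 69777641, 51310741 and 54271927 in WT_1 to WT_3. The transgene itself was not analysed here.

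FT_1 stood apart from the other FT libraries. Over the 13482 genes tested, its median absolute log2 difference was 0.34 from FT_2 and 0.35 from FT_3, while FT_2 and FT_3 differed by 0.11. Over the proteasome genes the same values were 0.16, 0.18 and 0.059, but there WT_2 was as far from the other WT libraries, at 0.15 from WT_1 and 0.18 from WT_3. The 9 fibroblast markers summed to 6776 FPKM in FT_1 and to 16716 to 17743 FPKM in the other 5 libraries. The 5 epithelial markers summed to 303.8 FPKM in FT_1 and to 7.83 to 13.9 FPKM elsewhere, and KRT5, its most abundant, reached 171.5 FPKM in FT_1. Of these 5, KRT5, KRT8, KRT18 and EPCAM were at 0 in the WT libraries. In edgeR, PDGFRA alone of the 9 fibroblast markers passed, higher in FT cells, and the 4 epithelial markers tested had an adjusted p of 0.0561 to 0.342. Without FT_1, 5 fibroblast markers were higher and 1, VIM, was lower, against 30.6% and 31.5% of all genes, with log2 fold changes of 1.37 (edgeR adjusted p = 1.91e-07) for LUM, 1.01 (edgeR adjusted p = 1.61e-06) for DCN and -0.79 (edgeR adjusted p = 1.06e-05) for VIM. KRT5, KRT8 and KRT18 also passed without FT_1, at edgeR adjusted p of 3.40e-06 to 0.00109, from 0.18 to 2.57 FPKM in FT_2 and FT_3. CDH1, the other epithelial marker tested, did not pass without FT_1, at -0.28 (edgeR adjusted p = 0.254). The epithelial sums of FT_2 and FT_3, at 10.97 and 10.83 FPKM, lay within the WT range. Differences between the groups in fibroblast markers and in these keratins were thus not confined to FT_1. Markers of leukocytes summed to at most 7.96 FPKM, of endothelium to at most 1.52, of skeletal muscle to at most 5.77 and of cartilage to at most 2.29 in any library. These low markers differed between the groups too. In edgeR DES was higher (7.44, adjusted p = 0.00488), at 3.17 to 5.74 FPKM in FT and at most 0.07 in WT libraries, while CD68 (-1.24, adjusted p = 0.0185), MYH3 (-4.01, adjusted p = 0.0461) and ACAN (-2.26, adjusted p = 0.0395) were lower, calls that were lost when any WT library was left out. The leukocyte sum was 3.52 to 4.12 FPKM in FT and 6.71 to 7.96 in WT libraries. The part of cell makeup in the values of the proteasome genes was not tested, and many results below are also given without FT_1. In bulk RNA, a change in the kinds of cells and a change in the RNA per cell cannot be told apart.

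Proteasome genes were lower in FT cells. With edgeR on the counts, 29 of the 46 genes tested fell and 2 rose at an adjusted p under 0.05, while 18.9% of all 13482 genes fell and 20.1% rose. The share that fell among proteasome genes was thus well over the background, and the share that rose was below it. Their median log2 fold change was -0.59, against 0.034 over all genes. At an unadjusted p under 0.05 with a log2 fold change beyond 1, the threshold of the methods, 6 proteasome genes were lower and 1 was higher, against 8.96% lower and 10.2% higher among all genes. The fall was therefore broad but mostly smaller than a change by a factor of 2. Without FT_1, 33 of 46 fell and 3 rose, against 31.5% and 30.6% of all genes.

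The FPKM values showed the fall too. With limma on log2(FPKM + 1), 33 of the 46 genes fell and 1 rose, against 29.2% and 15.0% of the 12247 genes whose FPKM averaged 0.5 or more. Every FT library was below every WT library for 36 of the 46 genes and above for 3, while 36.9% and 21.8% of all genes tested were so placed. Proteasome genes took 0.361%, 0.355% and 0.344% of all counts in FT_1 to FT_3, and 0.541%, 0.592% and 0.540% in WT_1 to WT_3. FPKM as deposited also ran lower in FT cells as a whole, and the median over all genes was -0.12 with limma. Taken relative to the median over all genes, the median of the proteasome genes was -0.62 with edgeR and -0.61 with limma, so the scaling moved both medians by nearly the same amount.

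**Figure D1:**
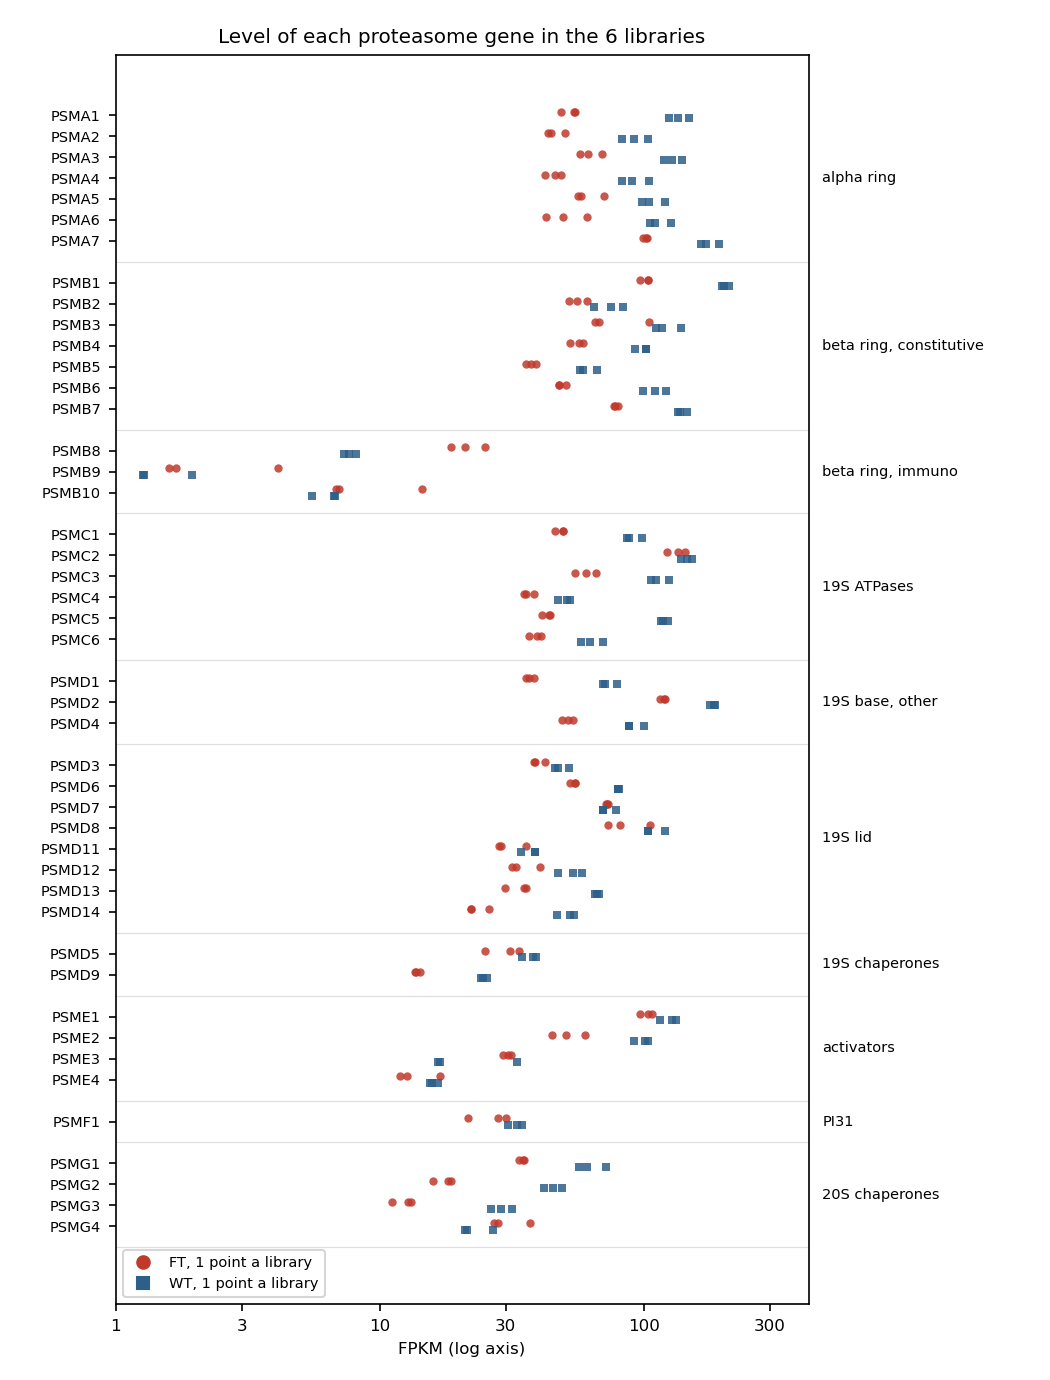
FPKM of 45 proteasome genes in each library on a log axis, FT as circles and WT as squares, grouped by role (PSMB11 at or near 0 is left out). The core subunits of the alpha and constitutive beta rings lie to the left in FT cells with no overlap, while PSMB8 lies to the right, at 18.6 to 25.0 FPKM against 7.30 to 8.17.

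The alpha ring, which forms the gate of the core particle, fell in all 7 of its subunits, against 18.9% of all genes. Their summed FPKM was 421 ± 13.2 in FT and 847 ± 81.2 in WT cells (SD, n = 3), or 49.7% of WT. PSMA1, which had the smallest p of the ring, was at 48.5 FPKM (FT_1), 54.2 (FT_2) and 54.7 (FT_3), and at 134 (WT_1), 148 (WT_2) and 124 (WT_3). No FT library came near the WT range. Its log2 fold change was -1.21 (SE 0.10, edgeR adjusted p = 0.00102). PSMA3 was at 57.5 FPKM (FT_1), 69.4 (FT_2) and 61.6 (FT_3), and at 128 (WT_1), 139.5 (WT_2) and 119 (WT_3), again with a wide gap between the groups. The log2 fold change of PSMA3 was -0.87 (SE 0.11, edgeR adjusted p = 0.00248). Among the other 5 alpha subunits the log2 fold change ran from -1.0 in PSMA6 to -0.63 in PSMA7, and the FPKM in FT cells was 44.7% to 57.7% of WT. PSMA2 shares 828 bases with C4H7orf25 on the same strand, so its counts carry that uncertainty.

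The constitutive beta ring fell in 5 of its 7 subunits, against 18.9% of all genes, and in 6 of 7 without FT_1, against 31.5%. Its summed FPKM was 457 ± 15.3 in FT and 808 ± 52.6 in WT cells (SD, n = 3), or 56.5% of WT. PSMB1, a subunit without proteolytic activity, was the most abundant of the ring in WT cells and was at 96.5 FPKM (FT_1), 104 (FT_2) and 104 (FT_3), and at 201 (WT_1), 211 (WT_2) and 197 (WT_3). Its level in FT cells was 49.9% of WT, with a log2 fold change of -0.84 (SE 0.078, edgeR adjusted p = 0.00119). PSMB6, which cuts after acidic residues, was at 47.6 FPKM (FT_1), 47.6 (FT_2) and 50.9 (FT_3), and at 110.4 (WT_1), 121 (WT_2) and 99.1 (WT_3). The log2 fold change of PSMB6 was -1.02 (SE 0.10, edgeR adjusted p = 0.00130), the steepest of the ring. PSMB7, the trypsin-like subunit, was at 77.5 FPKM (FT_1), 79.7 (FT_2) and 76.8 (FT_3), and at 137 (WT_1), 146 (WT_2) and 134 (WT_3), and its log2 fold change was -0.68 (SE 0.072, edgeR adjusted p = 0.00162). PSMB5, the chymotrypsin-like subunit, was at 39.0 FPKM (FT_1), 37.3 (FT_2) and 35.7 (FT_3), and at 58.6 (WT_1), 66.7 (WT_2) and 57.3 (WT_3). For PSMB5 the log2 fold change was -0.55 (SE 0.086, edgeR adjusted p = 0.00486), so that all 3 subunits that have an immunoproteasome counterpart fell. PSMB11 overlaps PSMB5 on the other strand, with at most 1 count.

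PSMB4 fell as well, with a log2 fold change of -0.66 (SE 0.081, edgeR adjusted p = 0.00236). PSMB2 and PSMB3 did not pass in edgeR. PSMB3 was at 105 FPKM (FT_1), 67.5 (FT_2) and 65.2 (FT_3), and at 111 (WT_1), 139 (WT_2) and 117 (WT_3), and FT_1 alone came close to the WT range. The change on the log2 scale was -0.47 (SE 0.20, edgeR adjusted p = 0.109) with all libraries and -0.71 (edgeR adjusted p = 1.30e-04) without FT_1. PSMB2 had a log2 fold change of -0.24 (SE 0.12, edgeR adjusted p = 0.169). Both passed with limma on FPKM, at adjusted p = 0.0372 and 0.0433. After removal of a smooth gene length trend in each library, PSMB2 had -0.078 (edgeR adjusted p = 0.629) and PSMB3 had -0.22 (edgeR adjusted p = 0.399).

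Of the immunoproteasome subunits, PSMB8 rose. It was at 25.0 FPKM (FT_1), 21.1 (FT_2) and 18.6 (FT_3), and at 7.30 (WT_1), 8.17 (WT_2) and 7.66 (WT_3), from 1761, 1128 and 1123 counts in FT and 565, 465 and 460 in WT libraries. All FT libraries lay above all WT libraries, by a mean factor of 2.79 in FPKM. Its log2 fold change was 1.64 (SE 0.13, edgeR adjusted p = 8.52e-04), and 1.53 (edgeR adjusted p = 1.83e-06) without FT_1. PSMB8 was the only subunit of the core particle to rise in edgeR, limma or DESeq2.

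PSMB9 and PSMB10 did not pass, and the excess of their FT means was smaller without FT_1. PSMB9 was at 4.13 FPKM (FT_1), 1.59 (FT_2) and 1.70 (FT_3), and at 1.27 (WT_1), 1.94 (WT_2) and 1.28 (WT_3). FT_2 and FT_3 lay within the WT range, and counts were low, at 53 to 201. PSMB9 had a log2 fold change of 0.88 (SE 0.46, edgeR adjusted p = 0.180), and 0.32 (edgeR adjusted p = 0.460) without FT_1. PSMB10 was at 14.4 FPKM (FT_1), 7.03 (FT_2) and 6.83 (FT_3), and at 5.55 (WT_1), 6.74 (WT_2) and 6.80 (WT_3). Its value in FT_1 was about as high above FT_2 and FT_3 as above WT, while FT_2 and FT_3 were just over the highest WT library. PSMB10 had a log2 fold change of 0.72 (SE 0.32, edgeR adjusted p = 0.121), and 0.29 (edgeR adjusted p = 0.0867) without FT_1. FT_1 was also the library with the high epithelial and low fibroblast marker sums, whose part in these values was not tested.

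Within each library, the FPKM of each immunoproteasome subunit was divided by that of the constitutive subunit it replaces, a ratio that no library scaling can move. PSMB8 was 64.0%, 56.5% and 52.2% of PSMB5 in FT_1 to FT_3, against 12.4%, 12.3% and 13.4% in WT_1 to WT_3. The means were 57.6% ± 5.97 and 12.7% ± 0.592 (SD, n = 3), a log2 difference of 2.18. PSMB9 was 8.68%, 3.34% and 3.34% of PSMB6 in FT libraries, against 1.15%, 1.60% and 1.29% in WT libraries. PSMB10 was 18.6%, 8.82% and 8.89% of PSMB7 in FT libraries, against 4.05%, 4.61% and 5.07% in WT libraries. In all 3 pairs every FT library was above every WT library. The log2 differences were 1.78 for PSMB9/PSMB6 and 1.32 for PSMB10/PSMB7, and 2.10, 1.32 and 0.96 for the 3 pairs without FT_1. The exact two-sided permutation test gave p = 0.10 for each pair, before and after adjustment over the 3 pairs, which is the smallest value that 3 libraries against 3 can give. In the pairs PSMB9/PSMB6 and PSMB10/PSMB7 the constitutive subunit was the one that passed in edgeR.

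**Figure D2:**
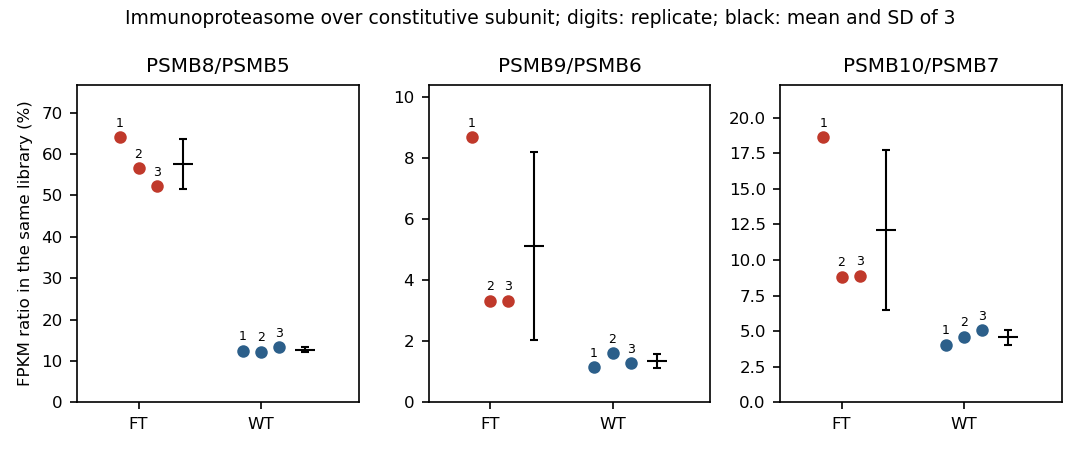
FPKM of PSMB8, PSMB9 and PSMB10 as a percentage of PSMB5, PSMB6 and PSMB7 in the same library, 1 point per library with its replicate number, and mean with SD of 3 in black. PSMB8 reaches 52.2% to 64.0% of PSMB5 in FT libraries and 12.3% to 13.4% in WT libraries, and FT_1 is the highest in all 3 pairs.

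PSMB8 and PSMB9 lie on chromosome 23 between and beside the transporter genes TAP2 and TAP1, which carry the peptides made by the immunoproteasome into the endoplasmic reticulum. These 4 genes fill a block of 54797 bases in the table, from 7138546 to 7193342, and the genome build of the table is not named. TAP1 was at 6.51 FPKM (FT_1), 3.87 (FT_2) and 3.53 (FT_3), and at 1.77 (WT_1), 1.64 (WT_2) and 1.78 (WT_3). edgeR put its log2 fold change at 1.57 (SE 0.25, edgeR adjusted p = 0.00507), close to that of PSMB8 next to it. TAP2, given here as a neighbour after its values were seen, was at 13.0 FPKM (FT_1), 10.1 (FT_2) and 9.32 (FT_3), and at 8.51 (WT_1), 8.71 (WT_2) and 9.70 (WT_3), and the groups overlapped. It had a log2 fold change of 0.42 (SE 0.13, edgeR adjusted p = 0.0507) and lay just outside the threshold. It passed without FT_1, at 0.28 (edgeR adjusted p = 0.0150), but not with limma (adjusted p = 0.208).

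The base of the regulatory particle carries 6 ATPases, PSMC1 to PSMC6, which unfold substrates and open the gate. Of these 5 fell, against 18.9% of all genes, and their summed FPKM was 360.3 ± 15.6 in FT and 583 ± 31.7 in WT cells (SD, n = 3), or 61.8% of WT. PSMC5 was at 43.9 FPKM (FT_1), 44.2 (FT_2) and 41.2 (FT_3), and at 116 (WT_1), 123 (WT_2) and 118 (WT_3). The groups were far apart and each was narrow. Its log2 fold change of -1.31 (SE 0.071, edgeR adjusted p = 5.23e-04) was the lowest of all 46 genes tested. PSMC1 was at 49.6 FPKM (FT_1), 49.5 (FT_2) and 46.1 (FT_3), and at 87.6 (WT_1), 98.4 (WT_2) and 86.7 (WT_3), with a log2 fold change of -0.75 (SE 0.082, edgeR adjusted p = 0.00172). PSMC3 and PSMC6 had log2 fold changes of -0.76 and -0.54. PSMC4 had -0.31 (SE 0.079, edgeR adjusted p = 0.0255) and lost the call with the replicate block (edgeR adjusted p = 0.0652) and when FT_3, WT_1, WT_2 or WT_3 was left out, with edgeR adjusted p between 0.0538 and 0.0888.

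PSMC2 was the exception among the ATPases. It was at 122 FPKM (FT_1), 134 (FT_2) and 143 (FT_3), and at 138 (WT_1), 151 (WT_2) and 146 (WT_3), and the groups overlapped. Its log2 fold change was 0.035 (SE 0.10, edgeR adjusted p = 0.800), and 0.10 (edgeR adjusted p = 0.214) without FT_1, and its sign turned with limma (-0.13), with library totals only (-0.12) and when FT_3 (-0.030) or WT_1 (-0.0053) was left out. In FT cells PSMC2 was the most abundant subunit of the regulatory particle, at 122 to 143 FPKM, whereas in WT cells PSMD2 was, at 178 to 185 FPKM.

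The other 3 base subunits found by the prefixes, PSMD1, PSMD2 and PSMD4, form the scaffold and a ubiquitin receptor. All 3 fell, against 18.9% of all genes. PSMD1 was at 35.9 FPKM (FT_1), 38.5 (FT_2) and 36.6 (FT_3), and at 71.3 (WT_1), 79.0 (WT_2) and 70.1 (WT_3). On the log2 scale it changed by -0.83 (SE 0.085, edgeR adjusted p = 0.00145); HTR2B lies across 15899 bases of its span on the other strand, but had at most 12 counts. PSMD4, the ubiquitin receptor, was at 49.1 FPKM (FT_1), 51.5 (FT_2) and 53.9 (FT_3), and at 87.8 (WT_1), 99.8 (WT_2) and 88.1 (WT_3). PSMD4 had a log2 fold change of -0.68 (SE 0.091, edgeR adjusted p = 0.00303), and PSMD2, the most abundant of the 3, had -0.47 (SE 0.075, edgeR adjusted p = 0.00518).

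Of the 8 lid subunits found by the prefixes, 4 fell in edgeR, 5 with limma, 6 without FT_1 and 7 with limma without FT_1. Over all genes the share that fell was 18.9%, 29.2% and 31.5% in the first 3 of these fits, and 5118 of 12031 genes fell in the last. The summed FPKM was 376 ± 25.8 in FT and 519 ± 28.2 in WT cells (SD, n = 3), or 72.5% of WT. PSMD14, the enzyme that cuts ubiquitin off the substrate, was at 25.9 FPKM (FT_1), 22.1 (FT_2) and 22.1 (FT_3), and at 52.3 (WT_1), 54.4 (WT_2) and 47.1 (WT_3). The FT libraries were all below the lowest WT library by a wide margin, and the log2 fold change was -0.98 (SE 0.095, edgeR adjusted p = 0.00130). PSMD13 was at 29.8 FPKM (FT_1), 35.2 (FT_2) and 35.8 (FT_3), and at 66.3 (WT_1), 67.8 (WT_2) and 65.4 (WT_3). The groups did not overlap, and the log2 fold change was -0.82 (SE 0.10, edgeR adjusted p = 0.00235). Its span lies within that of NBAS on the same strand, so how reads were shared between them is uncertain. PSMD6 and PSMD12 fell by 0.41 and 0.45 on the log2 scale. PSMD12 lost its call with the replicate block (edgeR adjusted p = 0.0683) and when FT_2, FT_3, WT_1 or WT_2 was left out, with edgeR adjusted p between 0.0963 and 0.110.

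The lid subunits found by the prefixes that did not pass were PSMD3, PSMD7, PSMD8 and PSMD11. Their log2 fold changes ran from -0.18 in PSMD8 to 0.15 in PSMD7, and the sign of PSMD7 turned with limma (-0.0021). PSMD7 had 72.8 ± 0.645 FPKM in FT and 73.0 ± 4.64 in WT cells (SD, n = 3). FT_1 was the highest FT library for each of these subunits. Without FT_1 the log2 fold changes of PSMD8 and PSMD11 were -0.33 (edgeR adjusted p = 0.00700) and -0.21 (edgeR adjusted p = 0.0323). PSMD3 was lower with limma, at -0.28 (adjusted p = 0.0353), and with library totals only (edgeR adjusted p = 0.0456).

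**Figure D3:**
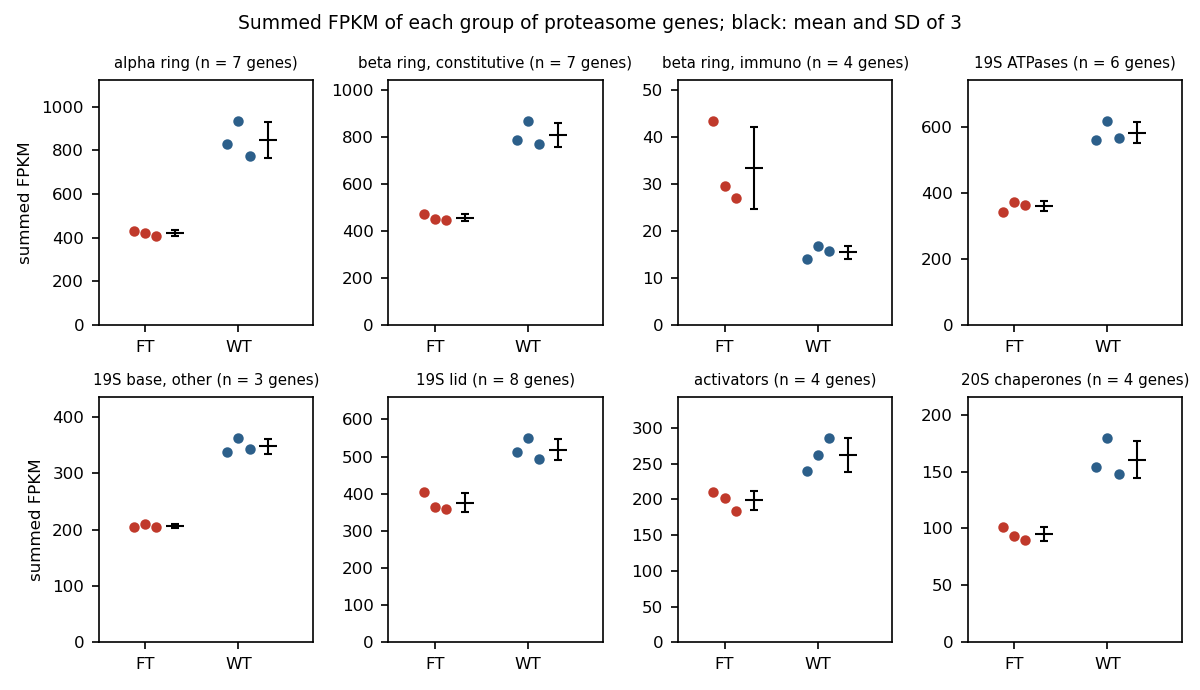
Summed FPKM of each group of proteasome genes from 0, 1 point per library, with mean and SD of 3 in black. The alpha ring sums to 406 to 432 FPKM in FT and 776 to 935 in WT libraries, and the lid to 358 to 405 and 495 to 550. The immunoproteasome group alone has a higher sum in FT cells, at 33.5 ± 8.80 against 15.6 ± 1.37 FPKM (SD, n = 3). PSMB8 makes up 21.5 and 7.71 FPKM of these means, and PSMB9 and PSMB10 did not pass in edgeR.

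Set side by side, the core particle had the lower median of the pair in FT cells. Of the 14 constitutive core subunits 12 fell, with a median log2 fold change of -0.76 and a summed FPKM of 53.0% of WT. Of the 17 regulatory subunits found by the prefixes 12 fell as well, with a median of -0.47 and a summed FPKM of 65.1% of WT. The median over all genes was 0.034. Without FT_1 the medians were -0.77 and -0.49, with 13 and 14 subunits called, while the share of all genes that fell went from 18.9% to 31.5%. After removal of a smooth gene length trend in each library, they came to -0.59 and -0.50, so the gap between the particles narrowed. The difference between the particles was not tested.

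Activators dock on the core in place of the regulatory particle and open its gate without ATP or ubiquitin. PSME1 and PSME2 build the interferon-inducible activator, and PSME2 fell. It was at 60.1 FPKM (FT_1), 50.8 (FT_2) and 45.0 (FT_3), and at 91.7 (WT_1), 101 (WT_2) and 104 (WT_3), and the groups were well apart. Its log2 fold change was -0.77 (SE 0.12, edgeR adjusted p = 0.00435). PSME1 was at 103 FPKM (FT_1), 107 (FT_2) and 96.7 (FT_3), and at 115 (WT_1), 128 (WT_2) and 132 (WT_3), with the FT libraries just below the WT libraries. The log2 fold change of PSME1 was -0.13 (SE 0.086, edgeR adjusted p = 0.275); it passed with limma on FPKM at -0.28 (adjusted p = 0.0393) and was above 0, at 0.055, once the length trend was removed. The pair share 9680 bases on opposite strands, RNF31 overlaps both and DCAF11 overlaps PSME1, and whether counting used strand is not stated, so their counts are uncertain. The interferon-inducible PSME2 and PSMB8 therefore moved in opposite directions.

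PSME3, the nuclear activator, was at 29.3 FPKM (FT_1), 31.3 (FT_2) and 30.6 (FT_3), and at 16.6 (WT_1), 16.9 (WT_2) and 33.0 (WT_3). AOC2 shares 2478 bases with it on the same strand, at 79 to 189 counts. WT_3 was apart from the other WT libraries and above all FT libraries, so that the groups overlapped. PSME3 had a log2 fold change of 0.61 (SE 0.28, edgeR adjusted p = 0.138) with all libraries. It was 1.01 (edgeR adjusted p = 0.00640) without WT_3 and 0.65 (edgeR adjusted p = 0.0446) without FT_1, and passed in both. PSME4, a large activator of the nucleus, was at 16.9 FPKM (FT_1), 12.7 (FT_2) and 12.0 (FT_3), and at 15.5 (WT_1), 15.8 (WT_2) and 16.6 (WT_3). FT_1 was the highest library and FT_2 and FT_3 were the lowest. This gave a log2 fold change of -0.05 (SE 0.13, edgeR adjusted p = 0.790), and -0.20 (edgeR adjusted p = 0.0231) without FT_1, while its sign turned without FT_2 (0.0046) or FT_3 (0.033). PSMF1 encodes PI31, which binds the core and inhibits it in the test tube. It was at 21.6 FPKM (FT_1), 27.9 (FT_2) and 30.2 (FT_3), and at 34.6 (WT_1), 33.2 (WT_2) and 30.5 (WT_3), with a log2 fold change of -0.14 (SE 0.15, edgeR adjusted p = 0.486), and -0.0031 (edgeR adjusted p = 0.977) without FT_1.

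**Figure D4:**
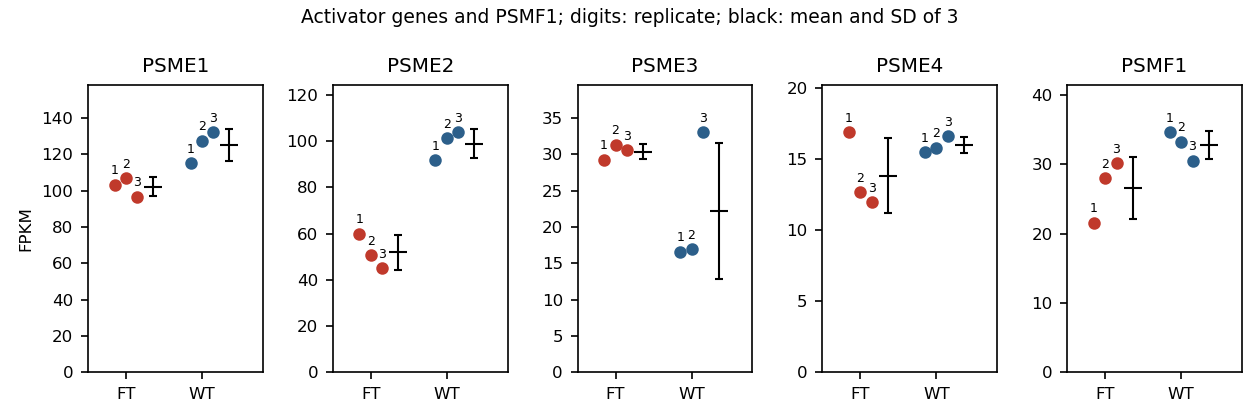
FPKM of PSME1 to PSME4 and PSMF1 from 0, 1 point per library with its replicate number, and mean with SD of 3 in black. PSME2 separates the groups, at 45.0 to 60.1 FPKM in FT and 91.7 to 103.8 in WT libraries, and in PSME3 the library WT_3 lies at 33.0 FPKM beside 16.6 and 16.9.

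The chaperones that assemble the core, PSMG1 to PSMG4, act in pairs on the alpha ring. PSMG2, the partner of PSMG1, was at 18.6 FPKM (FT_1), 18.2 (FT_2) and 15.9 (FT_3), and at 45.2 (WT_1), 49.0 (WT_2) and 41.8 (WT_3). Its level in FT cells was 38.8% of WT, with a log2 fold change of -1.21 (SE 0.10, edgeR adjusted p = 9.13e-04). PSMG3, the partner of PSMG4, was at 11.1 FPKM (FT_1), 13.1 (FT_2) and 12.8 (FT_3), and at 26.4 (WT_1), 31.6 (WT_2) and 28.7 (WT_3). The log2 fold change of PSMG3 was -1.07 (SE 0.13, edgeR adjusted p = 0.00224), and PSMG1 had -0.71 (SE 0.10, edgeR adjusted p = 0.00398). PSMG4 went the other way, at 37.1 FPKM (FT_1), 27.1 (FT_2) and 28.0 (FT_3), and at 21.4 (WT_1), 26.7 (WT_2) and 21.0 (WT_3). FT_1 was the highest, and FT_2 was only just above WT_2. Its log2 fold change was 0.57 (SE 0.18, edgeR adjusted p = 0.0468), and the call was lost in each fit that left out 1 library other than FT_1, with edgeR adjusted p between 0.0617 and 0.156. It was also lost with limma (adjusted p = 0.0853), library totals only, no filter and the replicate block, and held in 4 of the 15 other fits. PSMG3 and PSMG4, which form a dimer, thus had opposite signs in these libraries.

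Of the chaperones of the regulatory particle, PSMD9 fell and PSMD5 did not pass. PSMD9 was at 13.7 FPKM (FT_1), 14.3 (FT_2) and 13.6 (FT_3), and at 24.1 (WT_1), 25.5 (WT_2) and 24.7 (WT_3), with a log2 fold change of -0.68 (SE 0.074, edgeR adjusted p = 0.00168). PSMD5 was at 25.1 FPKM (FT_1), 33.7 (FT_2) and 31.2 (FT_3), and at 37.9 (WT_1), 39.1 (WT_2) and 34.6 (WT_3), with a log2 fold change of -0.15 (SE 0.13, edgeR adjusted p = 0.416), and -0.026 (edgeR adjusted p = 0.784) without FT_1. PSMC3IP, given apart because it is no subunit, had 4.61 ± 1.07 FPKM in FT and 6.55 ± 0.472 in WT cells (SD, n = 3) and a log2 fold change of -0.34 (SE 0.22, edgeR adjusted p = 0.262), and -0.15 (edgeR adjusted p = 0.325) without FT_1.

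**Figure D5:**
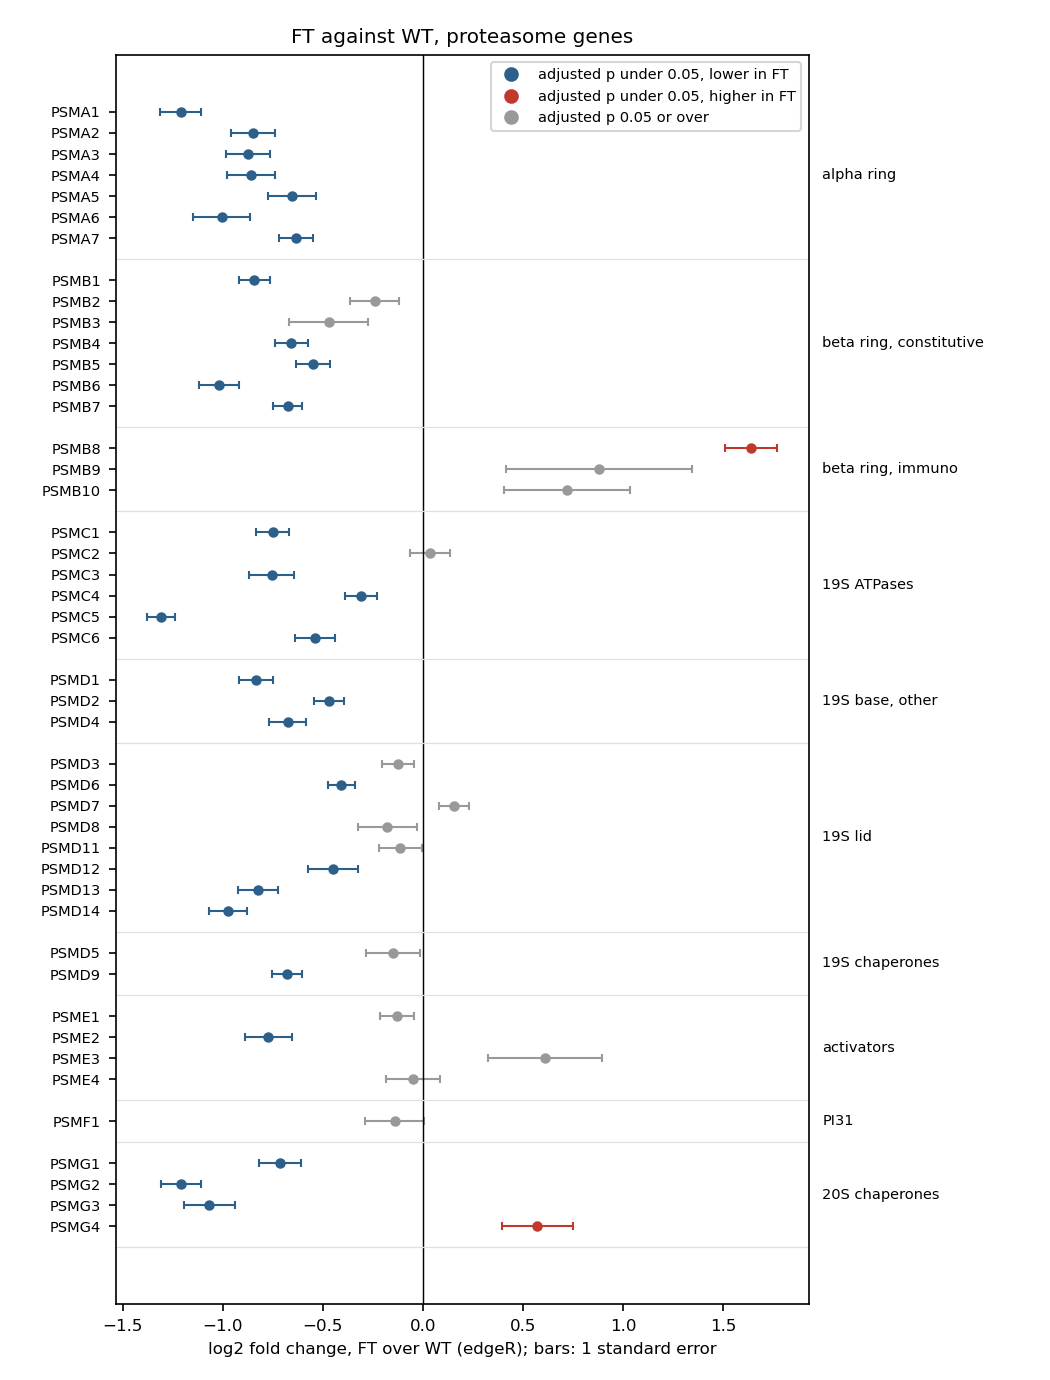
Log2 fold change of FT over WT from edgeR with 1 standard error for 45 proteasome genes, grouped by role and coloured by whether the adjusted p was under 0.05. The alpha ring lies between -1.21 and -0.63, PSMC5 is the lowest at -1.31 and PSMB8 the highest at 1.64.

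Most constitutive subunits also shared the library in which they peaked in WT cells. In WT cells, all 14 core subunits and 14 of the 17 regulatory subunits had their highest FPKM in WT_2, whereas 36.8% of all genes tested did. In FT cells 5, 5 and 4 core and 7, 7 and 3 regulatory subunits were highest in FT_1, FT_2 and FT_3, against 47.7%, 27.3% and 24.9% of all genes. The fall was uneven among the core subunits, whose FPKM in FT cells ran from 38.7% of WT in PSMA1 to 75.7% in PSMB2. PSMB5 was the lowest of the 14 in every library, and the coefficient of variation over the 14 was 32.8% to 34.4% in FT and 30.1% to 33.7% in WT libraries. For the 17 regulatory subunits it was 54.6% to 58.1% in FT and 43.8% to 47.9% in WT libraries, so their levels were spread more widely in FT cells.

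Across the 31 constitutive subunits, the log2 fold change had a Spearman's rho of -0.33 with the mean FPKM in WT cells and 0.36 with relative gene length. Over all genes tested the same values were -0.24 and 0.17. These are correlations across genes of the same 6 libraries, and genes are not independent replicates. The subunits were also short, with a median relative length of 0.597 against 0.98 over all genes. With the length trend removed, 29 proteasome genes fell and 2 rose, against 2558 and 2639 of all 13443 genes in that fit, and the median was -0.48. The 47 genes lie on 18 chromosomes, with 8 on chromosome 19 and 7 on chromosome 10.

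Proteasome genes outside the prefixes followed in part, with 4 of 10 lower and 1 higher, against 18.9% and 20.1% of all genes. POMP, the maturation factor of the core, was at 49.1 FPKM (FT_1), 56.8 (FT_2) and 53.2 (FT_3), and at 135 (WT_1), 148 (WT_2) and 116 (WT_3). The groups were far apart, and its log2 fold change was -1.17 (SE 0.12, edgeR adjusted p = 0.00152). USP14, a deubiquitinase bound to the regulatory particle, had 22.6 ± 1.04 FPKM in FT and 47.7 ± 0.767 in WT cells (SD, n = 3) and a log2 fold change of -0.92 (SE 0.067, edgeR adjusted p = 7.50e-04). PAAF1 and ZFAND5, which bind the regulatory particle, had log2 fold changes of -0.97 and -0.69. ADRM1, a ubiquitin receptor of the regulatory particle, rose instead, with 0.38 (SE 0.077, edgeR adjusted p = 0.0119), but did not pass with limma (adjusted p = 0.0646). Its call was also lost with library totals only, with the replicate block and when WT_1 was left out. The constitutive core, its chaperones PSMG1 to PSMG3 and its maturation factor were thus all lower in FT cells, PSMB2 and PSMB3 being short of the threshold in edgeR.

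Regulators of proteasome transcription were measured too. The list was tested in 9 entries of 8 gene symbols, as NFYB has more than 1 entry. Of these 9 entries 1 fell and 0 rose, against 18.9% and 20.1% of all genes. The 1 was STAT3, with a log2 fold change of -0.28 (SE 0.082, edgeR adjusted p = 0.0404), and its call was lost with no filter, with the replicate block and when any library but FT_1 was left out. NFE2L1, the factor that raises proteasome transcription when degradation fails, had 80.0 ± 8.19 FPKM in FT and 73.5 ± 4.23 in WT cells (SD, n = 3). Its log2 fold change was 0.28 (SE 0.10, edgeR adjusted p = 0.0723). It passed with DESeq2 and without FT_1, there at 0.21 (edgeR adjusted p = 0.0231), but not with limma (0.12, adjusted p = 0.367). FT_1 was at 89.45 FPKM, while FT_2 and FT_3, at 75.27 and 75.26, lay within the WT range of 68.98 to 77.39. BACH1, a repressor, had -0.29 (SE 0.35, edgeR adjusted p = 0.536) and was lower without FT_1, at -0.80 (edgeR adjusted p = 1.38e-04). The NFE2L1 protein and its cleavage were not measured.

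Among 9 ubiquitin genes and shuttles, 4 fell and 2 rose, against 18.9% and 20.1% of all genes. Without FT_1 4 fell and 4 rose, against 31.5% and 30.6%. VCP, the ATPase that pulls substrates out of complexes and membranes, had 108 ± 3.57 FPKM in FT and 199 ± 9.78 in WT cells (SD, n = 3) and a log2 fold change of -0.73 (SE 0.081, edgeR adjusted p = 0.00184). RAD23B, a shuttle that brings substrates to the proteasome, fell (-0.42, edgeR adjusted p = 0.00735). Of the genes that encode ubiquitin, RPS27A fell with -1.06 (SE 0.20, edgeR adjusted p = 0.00976), the largest change of the list, while UBB rose with 0.57 (SE 0.15, edgeR adjusted p = 0.0312), and UBQLN4, another shuttle, rose with 0.60 (SE 0.16, edgeR adjusted p = 0.0280). Neither UBB nor UBQLN4 passed when any WT library was left out or with limma (adjusted p = 0.0820 and 0.0889).

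Among 12 interferon-linked genes of antigen processing, 3 rose and 1 fell, against 20.1% and 18.9% of all genes, and without FT_1 5 rose and 4 fell, against 30.6% and 31.5%. TAPBP, which holds the class I molecule at the peptide transporter, was at 124 FPKM (FT_1), 106 (FT_2) and 103 (FT_3), and at 45.5 (WT_1), 46.3 (WT_2) and 42.9 (WT_3). All FT libraries were above all WT libraries, with a log2 fold change of 1.46 (SE 0.094, edgeR adjusted p = 5.78e-04). TAPBP lies on chromosome 23 like PSMB8 and TAP1, from 7473580 to 7484202 and outside their block, while NLRC5 lies on chromosome 18. Any part of this shared position was not tested. NLRC5, the activator of class I genes, had a log2 fold change of 1.75 (SE 0.25, edgeR adjusted p = 0.00363) at less than 1 FPKM in every library. CALR, a chaperone of class I folding, fell with -0.68 (SE 0.16, edgeR adjusted p = 0.0175), a call that was lost when WT_1 or WT_2 was left out. PSMB8, TAP1, TAPBP and NLRC5 were therefore higher in FT cells, and the interferon-linked PSME2 was lower.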

How the data were processed

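RNA of 3 FT and 3 WT cultures, 1 per fetus, was compared. The authors used HISAT for mapping, and StringTie together with edgeR for expression. The submitters' processing notes name Bowtie 0.12.2, HISAT2 2.0, StringTie 1.3.0 and the mouse build mm8, whose role is not given. The counts the authors deposited are whole reads per gene and were not normalized. The FPKM values the authors deposited are scaled by gene length and library total. The build of the table, and whether strand was used in counting, are not given in the sources used here.

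Counts were fitted with edgeR 4.0.16 in R 4.3.3 (quasi-likelihood test, TMM factors of 0.934 to 1.06, filterByExpr), and standard errors are the absolute log2 fold change divided by the square root of F. Calls use Benjamini-Hochberg adjusted p under 0.05 over all 13482 genes. Alternatives were limma 3.58.1 on log2(FPKM + 1), with understated changes of low genes, and on log2(FPKM + 0.1), DESeq2 1.42.0, median-ratio size factors, library totals only, no filter, a length trend removed (relative length is count over FPKM), the threshold of the methods, a replicate block and each library left out. A limma fit without FT_1 was added after seeing the data. Ratios within libraries were tested with an exact permutation test (scipy 1.17.1). Methods were tested on simulated data. Members and lists were chosen with earlier results of these data known. Values in every library are given for the immunoproteasome subunits and their counterparts, activators, PSMF1 and the 2 members of each subcomplex with the smallest edgeR p. They were added after being seen for PSMB3, PSMC2, PSMG4, POMP, TAP1 and TAPBP, and up to 6 genes are named per outside list. TAP2, SEM1, ADRM1, BACH1, RPS27A, UBB, UBQLN4 and the markers named were chosen after their values were seen. P-values of the fits set the difference between FT and WT against the spread between the 3 cultures of a group. The fits estimated that spread with information shared across genes.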

Additional observations from a re-analysis of the deposited data

How the results depend on the processing

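Of the 31 genes called among the 46 tested, 28 kept their call and direction in all 15 other fits, and PSMC4, PSMD12 and PSMG4 did not. Of the 15 genes not called, 9 were called in at least 1 other fit and 6 (PSMB9, PSMB10, PSMC2, PSMD5, PSMD7, PSMF1) in none. The number lower in FT cells was 27 to 33 with other tests, scalings or libraries left out, 37 with limma without FT_1 and 6 at the threshold of the methods. The number higher was 1 with limma at either pseudocount, library totals only, no filter, the replicate block, that threshold and limma without FT_1, a fit added after seeing the data, and 1 to 3 with a library left out. At the threshold of the methods 2 alpha, 1 constitutive beta, 1 ATPase, 0 other base and 0 lid subunits were lower, and limma without FT_1 called 7 lid subunits. The median over proteasome genes was -0.74 with limma, -0.75 with pseudocount 0.1, -0.74 with library totals only, -0.55 without the filter, -0.48 with the length trend removed, -0.79 with limma without FT_1, and -0.63 to -0.53 with a library left out. Over all genes the medians were -0.12, -0.15, -0.12, 0.046, 0.030 and -0.15 in the same order, -0.011 with the replicate block and -0.017 to 0.042 with a library left out. With library totals only, 3394 genes were lower and 2049 higher, and with limma 3573 and 1837. All genes lower numbered 1208 at the threshold of the methods, 5118 with limma without FT_1 and 1531 to 4337 with a library left out, and all genes higher 1378 at that threshold and 1516 to 4215. Signs turned for PSMC2 with limma (-0.13 at both pseudocounts, -0.066 without FT_1), library totals only (-0.12) and a library left out (-0.030 to 0.10), for PSMD7 with limma (-0.0021 at both pseudocounts, -0.0083 without FT_1), for PSME1 with the length trend removed (0.055) and for PSME4 with a library left out (-0.20 to 0.033). The cause was not tested. The replicate numbers mark different fetuses and did not pair the libraries (correlations -0.015, -0.026 and 0.036); the block gave 27 lower and 1 higher, and 1741 and 1838 of all genes. The ratios of immunoproteasome to constitutive subunits kept their sign in each alternative. Each group had 3 libraries, FT_1 was apart, and PSMB9 had 53 to 201 counts; which size of change could be found at such counts was not tested.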

Other observations

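SEM1, a small lid subunit outside the prefixes that was named after its values were seen, was at 88.2 FPKM (FT_1), 50.5 (FT_2) and 33.2 (FT_3), and at 54.7 (WT_1), 54.7 (WT_2) and 151 (WT_3). WT_3 was the highest library for SEM1 and for PSME3, and in both genes the other 2 WT libraries lay close together. The log2 fold change of SEM1 was -0.45 (SE 0.53, edgeR adjusted p = 0.533), and -0.89 (edgeR adjusted p = 0.0877) without FT_1. A cause was not tested.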
